A study of Mus musculus with 14 samples.

Results

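T cell receptor V segments are the gene pieces that encode most of the variable domain of the receptor chains, and they were taken here as every row named Trav (alpha chain) or Trbv (beta chain) with a read in at least 1 library. That gave 103 rows, 77 Trav and 26 Trbv, of 23665 rows with a read in the whole table. The 14 libraries were bulk RNA-seq of CD4+ regulatory T cells (Tregs) sorted as FOXP3-YFP+ from spleen and lymph nodes. Tregs of cKO mice (n = 5) carried floxed alleles of both miR-15/16 clusters and a Cre expressed from the Foxp3 locus, so that deletion follows Foxp3 expression. Tregs of WT mice (n = 4) carried the same Foxp3-YFP-Cre with wild-type miR-15/16 alleles. CD25lo (n = 2) and CD25hi (n = 3) Tregs were sorted from such WT mice by their level of CD25, the interleukin-2 receptor alpha chain. The Cre allele is thus shared by all 4 groups, and the age of the animal behind each library was not given.

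Each rearranged receptor gene of a T cell joins 1 V segment to other segments of the same locus. The joined gene is transcribed with a constant segment (Trac for alpha, Trbc1 or Trbc2 for beta). A population of T cells therefore uses many V segments at once, and the reads on each V segment follow both how many cells carry it and how much receptor RNA each cell holds. In bulk RNA these contributions cannot be told apart. Usage is given below as the share of the summed Trav or Trbv normalized counts of a library, where a normalized count is a read count divided by the size factor of the library.

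The Trbv rows lie on chromosome 6 between 40891229 and 41558452, and the Trav rows on chromosome 14 between 52427928 and 53977678 (GRCm38). The ends of 7 Trbv transcripts are shown because the segments differ in abundance and in whether they can be translated. Each line gives the last 60 bases of the annotated transcript, which hold the codon of the conserved cysteine before the joining point. Capitals mark that TGT codon in the first 6, and in Trbv24, annotated as a pseudogene, they mark a TAG stop codon lying in the frame of its TGT.
Trbv13-2: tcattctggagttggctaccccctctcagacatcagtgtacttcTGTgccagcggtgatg
Trbv3: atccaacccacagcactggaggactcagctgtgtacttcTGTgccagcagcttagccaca
Trbv12-2: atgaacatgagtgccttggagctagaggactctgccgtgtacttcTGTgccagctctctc
Trbv15: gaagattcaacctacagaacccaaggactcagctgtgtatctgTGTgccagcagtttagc
Trbv31: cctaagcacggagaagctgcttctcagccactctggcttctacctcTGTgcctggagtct
Trbv12-1: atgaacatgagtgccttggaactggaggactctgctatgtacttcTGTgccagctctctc
Trbv24: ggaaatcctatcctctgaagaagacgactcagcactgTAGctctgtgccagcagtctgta

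Many Trav segments exist in near-identical copies, because a stretch of the mouse locus is duplicated and its copies carry d or n in their names. The next 6 ends are shown because such copies decide which rows can hold reads of 50 bases. Capitals mark the positions at which the 3 copies of a set differ.
Trav6-6: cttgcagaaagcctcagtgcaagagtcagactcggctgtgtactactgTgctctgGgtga
Trav6d-6: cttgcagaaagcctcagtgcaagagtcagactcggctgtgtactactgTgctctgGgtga
Trav6n-6: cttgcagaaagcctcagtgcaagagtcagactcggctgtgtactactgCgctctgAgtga
Trav14-3: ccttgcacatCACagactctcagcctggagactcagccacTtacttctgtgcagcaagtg
Trav14d-3-dv8: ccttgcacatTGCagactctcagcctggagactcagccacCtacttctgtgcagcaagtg
Trav14n-3: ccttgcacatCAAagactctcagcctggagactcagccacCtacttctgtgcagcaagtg

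Trav6-6 and Trav6d-6 are alike over these bases and were both at 0 in all 14 libraries, whereas Trav6n-6, with 68.4% of its windows found in no other transcript, held 2.01% of Trav counts on average. Over the whole locus, 108 Trav genes and 20 Trav pseudogenes had values, and 40 of the genes and 11 of the pseudogenes were at 0 everywhere. Of those 40 genes, 37 had no 50-base window that occurs in their own transcript alone, and the highest share of such windows among the 40 was 14.4%. Among the 68 Trav genes with a read the median was 55.8%. Trav11 and Trav11d, which encode the alpha chain of invariant natural killer T cells, were among the rows at 0, and a count of 0 in such rows gives no limit on the transcript. All 22 Trbv genes had a read, and 17 of them had windows that were all their own. Trbv4 (27.9%) and Trbv5 (22.6%) were the Trbv genes with the most sequence shared with another transcript. Of the 38 Trav genes with no such window, 1 had a read: Trav13n-3 held 55.7 normalized counts in WT replicate 2, 53.4 in WT replicate 4 and at most 10.3 in the other libraries.

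**Figure D1:**
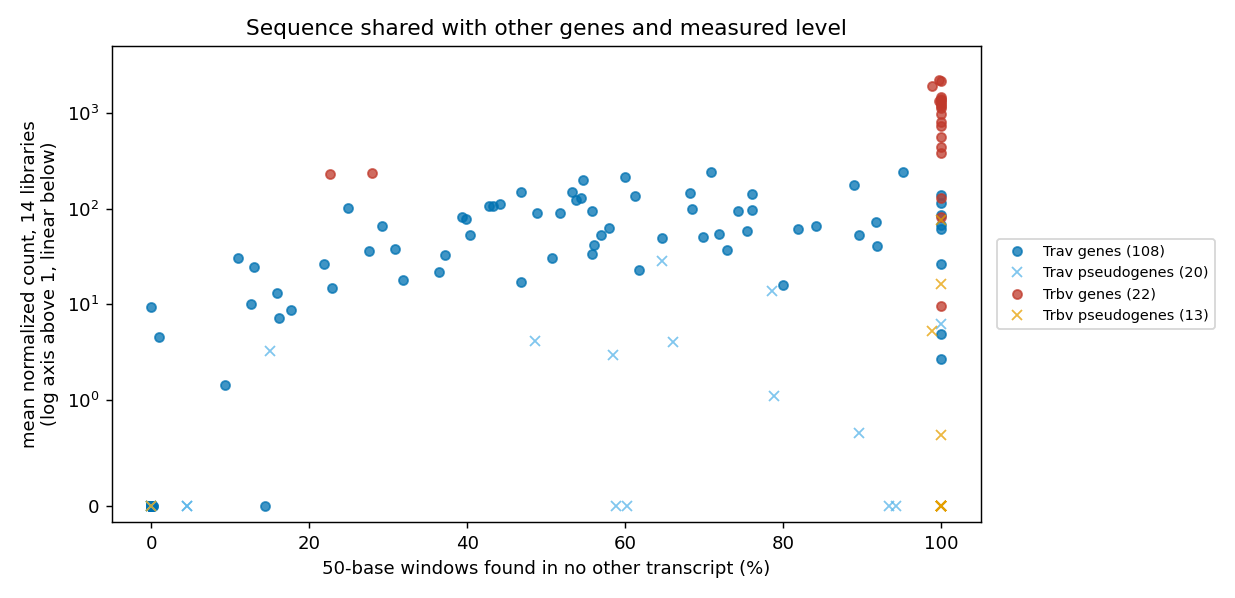
Mean normalized count over 14 libraries (vertical axis, log scale above 1) against the percent of 50-base windows found in no other transcript (horizontal axis), for each of the 163 Trav and Trbv rows with values. Of the 40 Trav genes at 0, 37 lie at 0% on the horizontal axis, and all 22 Trbv genes lie above 0 on the vertical axis.

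The libraries held 30055573 to 35226685 reads in genes. WT replicate 2 and CD25hi replicate 2 had the fewest genes with a read (13920 and 13723, against 14500 to 18200 in the other 12). The Treg markers Foxp3, Il2ra, Ctla4, Ikzf2 and Cd4 summed to 139243 to 151426 normalized counts in cKO Tregs and 130678 to 154562 in WT Tregs, and to 102832 to 105348 in CD25lo and 140352 to 144110 in CD25hi Tregs. Within the sums Il2ra was lower in cKO (13358.7 to 17141.4) than WT Tregs (24205.9 to 29151.2). Ikzf2 was higher (32844.5 to 37115.6, against 27600.3 to 32005.2), and Foxp3 and Cd4 overlapped. Ctla4 was at 13255.5 in WT replicate 4, against 32969.2 to 36409.8 in the other WT libraries and 8536.3 to 16236.2 in the CD25-sorted ones. The 5 B cell markers Cd79a, Cd79b, Ms4a1, Ighm and Igkc summed to 19146 to 25462 in cKO, 14785 to 20157 in WT, 13103 to 13556 in CD25lo and 13487 to 14612 in CD25hi Tregs, and Ms4a1 was at 0 in both CD25-sorted groups. Ighm made up most of these sums (18561 to 24413 in cKO, 14065 to 19499 in WT Tregs). Cd79b ran from 469.7 to 775.7 in cKO and 163.4 to 438.4 in WT Tregs. The others did not follow: Cd79a held 9.4 to 29.0 in cKO and 27.7 to 52.1 in WT Tregs. Ms4a1 held 0 to 9.4 and 0 to 45.7, and Igkc 103.2 to 668.1 and 9.2 to 1087.1. The CD8 T cell markers Cd8a and Cd8b1 summed to 312.5 to 461.3 in cKO, 300.9 to 660.7 in WT, 420.1 to 531.9 in CD25lo and 266.9 to 592.4 in CD25hi Tregs. Cd8b1 made up most of these sums, and Cd8a was at most at 60.4. The 6 gamma delta T cell markers summed to 382.2 to 513.8 in cKO, 383.3 to 962.8 in WT, 611.8 to 630.8 in CD25lo and 810.5 to 950.2 in CD25hi Tregs. Of these Tcrg-C1 held 102.7 and 42.4 in CD25lo Tregs, against 202.6, 495 and 189.4 in CD25hi Tregs. The other gamma delta markers overlapped between CD25lo and CD25hi Tregs. The 3 of 4 myeloid markers with values summed to 308.7 to 2566 in cKO, 731.7 to 3976 in WT, 395.5 to 873 in CD25lo and 218.6 to 509.4 in CD25hi Tregs. The 4 markers of invariant natural killer T cells, with Trav11 and Trav11d at 0, summed to 25.1 to 107.1 in cKO, 22.9 to 122.3 in WT, 130.9 to 253.4 in CD25lo and 75.4 to 130.5 in CD25hi Tregs. Zbtb16 held 51.8 and 201.9 in CD25lo Tregs, against 69.4, 53 and 103.4 in CD25hi Tregs. Traj18 held 79.1 and 51.5, against 44.1, 22.4 and 27.1. Whether such other cells were present, and their part in V segment usage, was not tested. Xist, an RNA of female cells, was at 34038 to 43337 normalized counts in 5 of 5 cKO libraries and at 39239 in 1 of 4 WT libraries, and at most at 64.6 in the other 8. Only WT Tregs held libraries of both kinds, so a sex term was set by WT replicate 3 against the other WT libraries. With that term in the fit, the difference between cKO and WT Tregs compares cKO Tregs with WT replicate 3 alone. Such a fit cannot separate sex from that library, and only its log2 differences are given below.

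Beta chain V segments took a small part of the RNA in each group. Summed Trbv rows were 0.0664% ± 0.0010 of normalized counts in cKO Tregs (SD, n = 5) and 0.0665% ± 0.0033 in WT Tregs (SD, n = 4). They were 0.0689% ± 0.0023 in CD25lo Tregs (SD, n = 2) and 0.0676% ± 0.0033 in CD25hi Tregs (SD, n = 3). The ranges of each pair of groups overlapped.

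Rows of alpha chain V segments summed to less in every library. The sums of the 2 loci are not a like comparison. Of 108 Trav genes 40 were at 0, 37 of them without a window of their own, while all 22 Trbv genes had a read. The sums therefore do not show that alpha chain V RNA was scarcer. Summed Trav rows were 0.0157% ± 0.0012 of normalized counts in cKO Tregs (SD, n = 5) and 0.0165% ± 0.0024 in WT Tregs (SD, n = 4), with overlapping ranges. They were 0.0171% and 0.0170% in the 2 CD25lo libraries, against 0.0141%, 0.0125% and 0.0142% in the 3 CD25hi libraries. Both CD25lo values lay above all CD25hi values. Trac, the constant segment joined to every Trav, had a log2 difference of 0.23 (adjusted p = 0.242 with limma-trend). For each 100 Trac counts there were 18.9 and 19.8 Trav counts in CD25lo libraries, against 18.4, 16.2 and 19.3 in CD25hi libraries, and these overlapped.

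Trbv usage was broad. The effective number of Trbv segments, the number of equally used segments that would give the same Shannon entropy, was 17.0 ± 0.23 in cKO Tregs (SD, n = 5) and 16.9 ± 0.52 in WT Tregs (SD, n = 4). It was 17.1 in both CD25lo libraries, against 17.5, 17.1 and 17.8 in CD25hi libraries. No single segment passed 13.4% of the Trbv counts of any library. Trbv13-2 had 10.3% of Trbv counts averaged over 14 libraries, followed by Trbv3 with 10.1%, Trbv12-2 with 9.003%, Trbv15 with 6.86% and Trbv13-1 with 6.48%. Trbv13-2 was first by group mean in cKO (10.86%), WT (10.87%) and CD25lo Tregs (10.1%), each ahead of Trbv3 with 10.5%, 10.2% and 9.36%. In CD25hi Tregs Trbv3 was first with 9.68%, ahead of Trbv13-2 with 8.89%. The next 5 over all libraries were Trbv1 with 6.38%, Trbv13-3 with 6.25%, Trbv19 with 6.14%, Trbv31 with 5.85% and Trbv16 with 5.49%. The 3 Trbv13 segments together held 23.1%, the largest family share. Per kilobase of sequence of their own, the levels averaged 7584 normalized counts for Trbv13-2, 5774 for Trbv12-2 and 5320 for Trbv3. That order is not the order of the shares: Trbv19 averaged 2539, below Trbv5 with 3194, which held 1.08% of Trbv counts. Among rows annotated as genes, Trbv21 with 0.046% and Trbv30 with 0.386% had the lowest shares of Trbv counts.

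**Figure D2:**
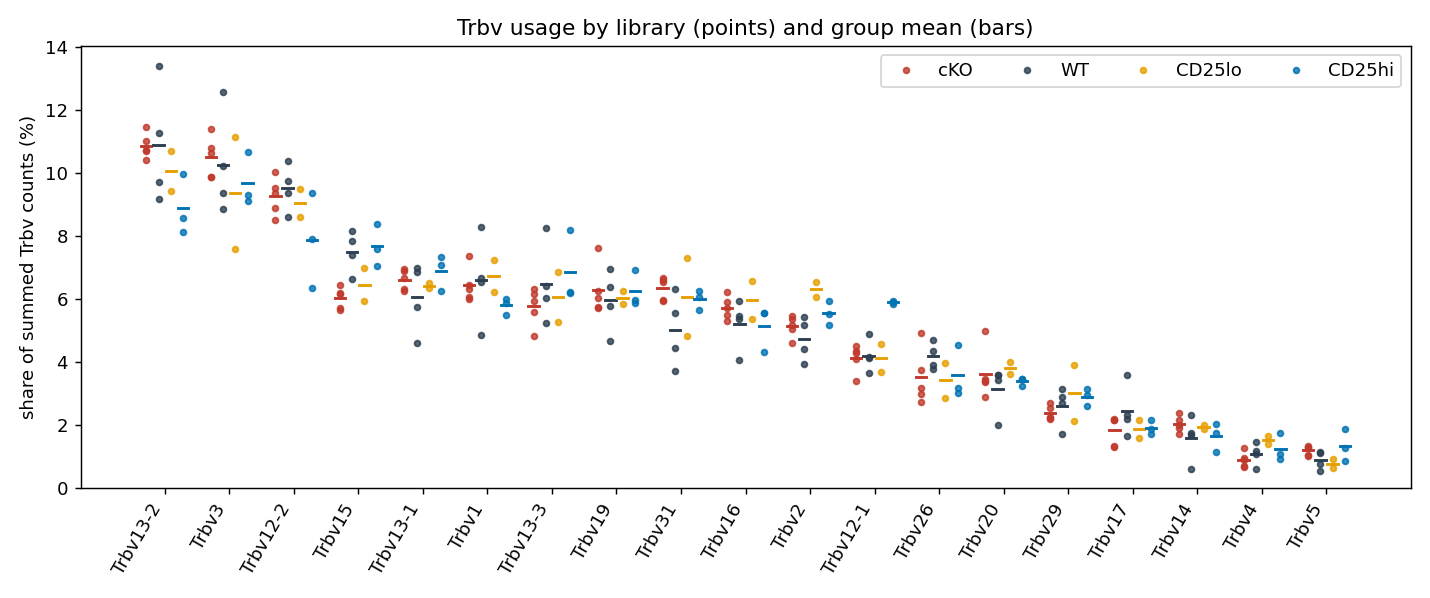
Share of summed Trbv counts (vertical axis, percent) of the 19 most used Trbv segments in each library (points) with group means (bars), for cKO, WT, CD25lo and CD25hi Tregs from left to right. Trbv13-2 and Trbv3 have the highest means over all libraries, 10.3% and 10.1%, and the groups overlap for most segments.

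None of the V segments was called between cKO and WT Tregs. Of the 103 rows, 97 passed the filter of at least 10 normalized counts in at least 2 libraries (72 Trav, 25 Trbv), and 0 of 97 had an adjusted p under 0.05 with limma-trend, while 3.52% of all 16241 genes tested did. At an unadjusted p under 0.05 there were 4 of 97, against 16.1% of all genes. edgeR and DESeq2 on reads recovered from the normalized counts also called 0, against 3.21% and 8.49% of all genes with an adjusted p. At an unadjusted p under 0.05 edgeR had 3 of 97 members, against 14.6% of all genes, and DESeq2 4 of 96, against 14.7%. The groups did not overlap for 3 of 97, against 8.54% of all genes: Trbv15 and Trav8-1 were lower in every cKO library and Trav21-dv12 higher. Sums over 42 V segment families gave 0 called as well, with 3 at an unadjusted p under 0.05 by limma-trend. Over all 16186 rows of that fit 572 were called and 2615 had an unadjusted p under 0.05. The 3 families, Trav2, Trbv15 and Trbv31, had 1 row with a read each, so they repeat the results of those rows. The median log2 difference was 0.06 over the 97 members and 0.05 over all genes tested. The median half-width of the interval of a log2 difference was 1.61 over the members and 0.52 over all genes. The members were thus measured less precisely, and their lower share at a small p does not show smaller changes. Of the 15 Trbv rows of at least 500 normalized counts on average, 2 (13.3%) had an unadjusted p under 0.05 by limma-trend. For 1 of them (6.67%) the groups did not overlap.

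The most used beta segments had small differences in the fit without a sex term, from which these intervals come. Trbv13-2 held 2205, 2217, 2355, 2338 and 2299 normalized counts in cKO Tregs, against 2382, 2270, 1911 and 2753 in WT Tregs. The cKO values lay inside the WT range, and the log2 difference was -0.02 (95% interval -0.22 to 0.19, adjusted p = 0.962, limma-trend), or 0.26 with a sex term. Trbv3 held 2410, 2200, 2029, 2091 and 2315 in cKO Tregs, against 2157, 2942, 1851 and 1928 in WT Tregs, a log2 difference of 0.02 (-0.28 to 0.31, adjusted p = 0.976), or 0.25 with a sex term. Its groups overlapped too. Trbv12-2 differed by -0.07 (-0.27 to 0.12, adjusted p = 0.773) and Trbv13-1 by 0.12 (-0.10 to 0.33, adjusted p = 0.637). Over the 15 Trbv rows of at least 500 normalized counts on average, log2 differences ran from -0.34 to 0.34, and the median half-width of their 95% intervals was 0.27.

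Trbv15 and Trbv31 stood at those ends. Trbv15 held 1302, 1170, 1321, 1212 and 1328 normalized counts in cKO Tregs, against 1563, 1912, 1634 and 1364 in WT Tregs. Every cKO library lay below every WT library. The log2 difference was -0.34 ± 0.11 (SE, 95% interval -0.59 to -0.10), with an adjusted p of 0.117 by limma-trend. Its share of Trbv counts was 6.02% ± 0.33 in cKO Tregs (SD, n = 5) and 7.50% ± 0.66 in WT Tregs (SD, n = 4). Trbv31, the segment that lies downstream of the constant segments in inverted orientation, held 1385, 1367, 1227, 1415 and 1272 in cKO Tregs, against 1174, 1044, 1320 and 766 in WT Tregs. These groups overlapped through WT replicate 3, and the log2 difference was 0.34 ± 0.14 (SE), with an adjusted p of 0.238. It was 0.18 without WT replicate 4 and 0.01 with a sex term.

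Alpha segments were less precisely measured. Trav14-1 had 4.91% of Trav counts over 14 libraries, followed by Trav12-2 with 4.84% and Trav3-3 with 4.29%. The next 7 held shares of 4.02% (Trav13-1), 3.49% (Trav7-5), 2.997% (Trav9-2), 2.97% (Trav4-4-dv10), 2.87% (Trav12-3), 2.85% (Trav4-3) and 2.82% (Trav19). Rows differ in how much sequence of their own can hold reads, so this order of shares need not be the order of usage by cells. Per kilobase of such sequence Trav13-1 (54.6% of windows its own) averaged 1303 normalized counts. Trav14-1 (95.1%) averaged 730 and Trav8-1 (39.4%), with 1.56% of Trav counts, 738. Trav14-1 was first by group mean in cKO (5.16%), CD25lo (4.93%) and CD25hi Tregs (5.21%). In WT Tregs Trav12-2 was first with 5.29%, and Trav14-1 with 4.34% came after Trav3-3 and Trav13-1 as well. Trav14-1 held 236.5, 282.7, 219.0, 318.1 and 235.4 normalized counts in cKO Tregs, against 208.3, 194.4, 364.9 and 140.8 in WT Tregs, a log2 difference of 0.26 (-0.33 to 0.85, adjusted p = 0.721, limma-trend). It was -0.51 with a sex term, 0.06 without WT replicate 4 and 0.52 without WT replicate 3. Trav12-2 differed by -0.19 (-0.75 to 0.37, adjusted p = 0.794) and Trav3-3 by -0.19 (-0.88 to 0.49, adjusted p = 0.834). The groups overlapped for all 3. Over the 72 Trav rows tested the median half-width of the interval was 2.10 on the log2 scale.

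The Trav rows with a small unadjusted p were low and held zeros. Trav13n-1, 1 of the n copies, held 7.6, 43.7, 9.7, 34.0 and 8.4 normalized counts in cKO Tregs, against 15.6, 0, 0 and 0 in WT Tregs (log2 difference 3.06, adjusted p = 0.127, limma-trend). It passed the filter only through cKO Tregs. The groups overlapped through WT replicate 1, and without that library, which leaves WT Tregs at 0 in 3 of 3 libraries, its adjusted p was 0.034. Trav2 held 26.5, 74.4, 26.3, 38.0 and 13.6 in cKO Tregs, against 22.9, 0, 9.1 and 0 in WT Tregs (log2 difference 3.01, adjusted p = 0.287).

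Rows at 0 moved with the number of genes detected. In cKO Tregs 5, 10, 6, 6 and 7 of the 77 Trav rows were at 0, against 7, 25, 10 and 21 in WT Tregs. In CD25lo Tregs 15 and 18 were at 0, against 11, 39 and 15 in CD25hi Tregs. The 25 and the 39 belong to WT replicate 2 and CD25hi replicate 2, the libraries with the fewest genes with a read. The effective number of Trav segments was 48.8 ± 2.1 in cKO Tregs (SD, n = 5) and 44.3 ± 3.6 in WT Tregs (SD, n = 4), with overlapping ranges. Counted over families in place of rows it was 14.1 ± 0.35 in cKO Tregs and 13.2 ± 0.61 in WT Tregs. The part of detection in the difference was not tested.

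**Figure D3:**
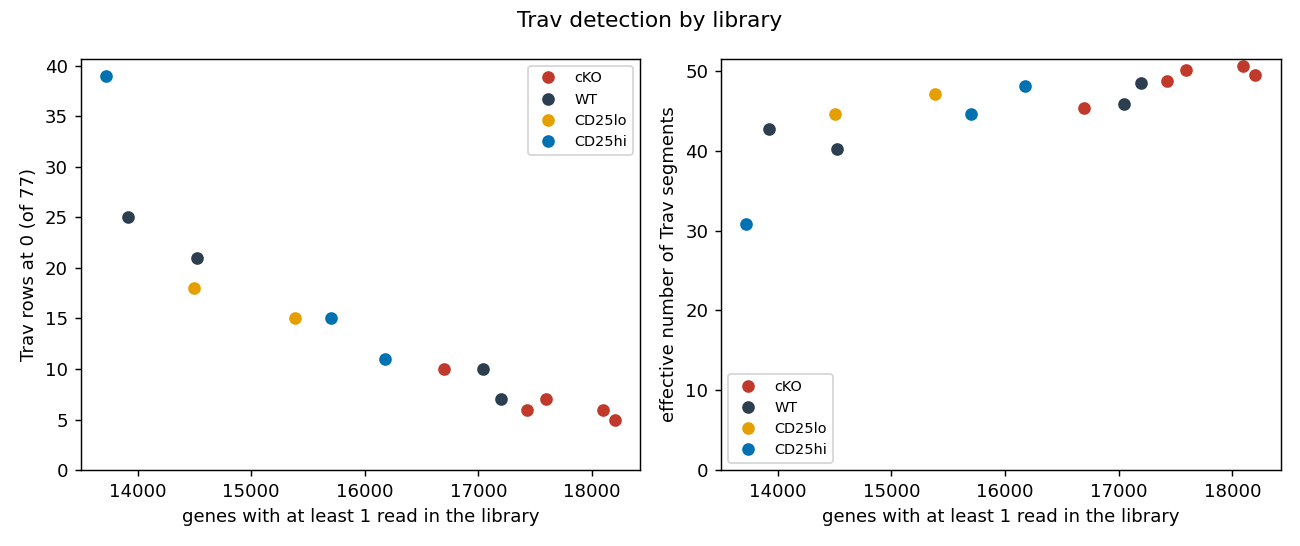
Number of the 77 Trav rows at 0 (left) and effective number of Trav segments (right) against the number of genes with a read, 1 point per library. The libraries with 13723 and 13920 genes have 39 and 25 Trav rows at 0, against 5 to 21 in the other 12.

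Whole usage profiles of cKO and WT libraries lay closer to each other than WT libraries did among themselves, and farther apart than cKO libraries did, by the median of the distances. The distance between 2 libraries was taken as the share of Trbv counts that would have to move from segment to segment to turn 1 profile into the other. Its median was 7.67 percentage points over 20 cKO and WT pairs, 5.57 over 10 pairs of cKO libraries and 10.99 over 6 pairs of WT libraries. For CD25lo and CD25hi pairs it was 8.85 (6 pairs), 10.3 for the pair of CD25lo libraries and 8.21 for 3 pairs of CD25hi libraries. Without WT replicate 2 and CD25hi replicate 2 it was 8.76 over 3 pairs of WT libraries and 4.83 for the pair of CD25hi libraries. Between groups it was then 6.99 over 15 cKO and WT pairs and 8.44 over 4 CD25lo and CD25hi pairs. For Trav profiles the median was 24.0 over cKO and WT pairs, 17.3 among cKO libraries and 28.6 among WT libraries, and 28.2 over CD25lo and CD25hi pairs, 30.6 for the CD25lo pair and 33.0 among CD25hi libraries. As a measure of counting error only, the share of Trbv13-2 in cKO replicate 1 was 10.4% with a 95% Wilson interval of 10.02% to 10.82%.

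None of the V segments was called between CD25lo and CD25hi Tregs. With limma-trend 0 of 97 had an adjusted p under 0.05, while 1.62% of all genes tested did. At an unadjusted p under 0.05 there were 6 of 97, against 13.5% of all genes, and edgeR and DESeq2 called 0, against 1.37% and 4.61% of all genes with an adjusted p. At an unadjusted p under 0.05 edgeR had 7 of 97 members, against 14.3% of all genes, and DESeq2 7 of 96, against 14.9%. The groups did not overlap for 17 of 97, against 24.5% of all genes. The median log2 difference was 0.21 over the members and 0.00 over all genes tested. The median half-width of its interval was 2.19 over the members and 0.70 over all genes, so the lower shares do not show smaller changes here either. Of the 15 Trbv rows of at least 500 normalized counts on average, 1 (6.67%) had an unadjusted p under 0.05 by limma-trend. For 4 of them (26.7%) the groups did not overlap. Of the family sums, Trav12 and Trav8 differed by 0.74 and 1.21 (unadjusted p = 0.0124 and 0.0159, adjusted p = 0.202 and 0.226, limma-trend). Over all 16186 rows of that fit 264 were called and 2181 had an unadjusted p under 0.05. In CD25hi replicate 2 Trav8-1, Trav8-2, Trav8n-2 and Trav8d-2 were at 0, which left the Trav8 sum with the 70.3 normalized counts of Trav8d-1.

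Trbv12-1, a near relative of Trbv12-2, had the smallest unadjusted p among beta segments. It held 1030 and 778.1 normalized counts in CD25lo Tregs, against 1237, 1347 and 1178 in CD25hi Tregs, without overlap. The log2 difference was -0.48 ± 0.16 (SE, 95% interval -0.82 to -0.14), with an adjusted p of 0.160 by limma-trend, and it was -0.28 without CD25lo replicate 2. Trbv12-2 had 2141 and 1819 in CD25lo Tregs, against 1659, 1438 and 1887 in CD25hi Tregs, which overlapped (log2 difference 0.26, -0.01 to 0.52, adjusted p = 0.388). Trbv13-2 had 2124 and 2261 in CD25lo Tregs, against 2092, 1947 and 1635 in CD25hi Tregs, without overlap (log2 difference 0.22, -0.06 to 0.50, adjusted p = 0.504). Trbv3 differed by -0.03 (-0.43 to 0.37), Trbv15 by -0.21 (-0.54 to 0.12) and Trbv13-1 by -0.06 (-0.35 to 0.23). The Trbv15 difference was -0.05 without CD25lo replicate 2, -0.37 without CD25lo replicate 1 and -0.10 without CD25hi replicate 2.

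**Figure D4:**
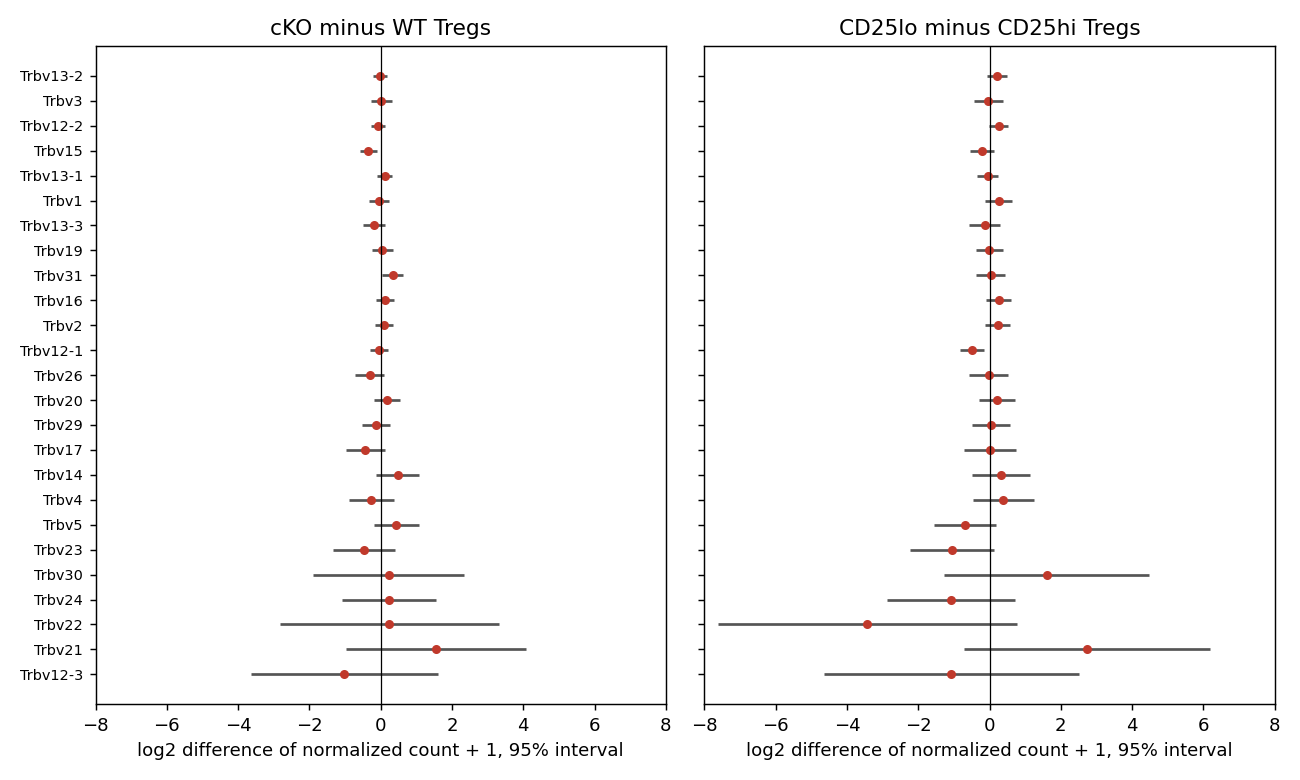
Log2 difference of the normalized count + 1 with its 95% interval (horizontal axis) for the 25 Trbv rows tested, most used at the top, in cKO minus WT Tregs (left) and CD25lo minus CD25hi Tregs (right). The intervals of the most used segments are narrow and those of the rarest rows span several log2 units.

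The 5 alpha segments at an unadjusted p under 0.05 all held a 0 in CD25hi replicate 2. Trav13-2 held 168.2 and 215.0 normalized counts in CD25lo Tregs, against 41.3, 0 and 60.9 in CD25hi Tregs. Trav8-1 held 86.4 and 136.3 in CD25lo Tregs, against 50.7, 0 and 13.5 in CD25hi Tregs. Neither overlapped. Their log2 differences were 3.79 and 3.59 (adjusted p = 0.132 and 0.137, limma-trend), and without CD25hi replicate 2 they were 1.90 and 2.00. Trav8-1 had an adjusted p of 0.033 without CD25hi replicate 1. Trav16, Trav6-7-dv9 and Trav13d-4 had log2 differences of 2.91, 2.91 and 3.73, and without CD25hi replicate 2 and WT replicate 2 these were 1.25, 1.08 and 2.90. Trav14-1, Trav12-2 and Trav3-3 differed by 0.27, 0.37 and 0.26, with intervals of -0.53 to 1.07, -0.39 to 1.13 and -0.67 to 1.18.

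The rest of the receptor was listed beside the V segments: the constant segments, the CD3 chains that carry the signal, the coreceptors and the enzymes of recombination. Of 15 genes, 12 were tested and 0 were called in either comparison with limma-trend. Trac differed by -0.01 between cKO and WT Tregs and Cd3e, a CD3 chain, by 0.11 (adjusted p = 0.968 and 0.432). Ptcra, the partner chain of immature thymocytes, was at 0 in all 14 libraries. Rag1 and Rag2, which cut the segments for joining, had at most 9.4 and 2.8 normalized counts, each in 1 library. Dntt, which adds bases at the joints in developing lymphocytes, held 75.7, 63.2, 44.8, 14 and 40.8 in cKO Tregs, against 26.0, 0, 28.5 and 13.4 in WT Tregs, which overlapped. It held 69.1 and 26.2 in CD25lo Tregs, against 4.7, 0 and 0 in CD25hi Tregs, without overlap (log2 difference 4.61, adjusted p = 0.129).

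Pseudogene rows held little. Together they were 0.449% to 0.745% of V segment counts in cKO Tregs and 0.369% to 0.947% in WT Tregs, and 0.416% to 1.005% in CD25lo and 0.275% to 0.845% in CD25hi Tregs. Trbv24, whose stop codon is shown above, held 103.1, 62.3, 111.9, 64.0 and 56.5 normalized counts in cKO Tregs, against 93.7, 44.8, 106.7 and 39.1 in WT Tregs, and was at 0.355% of Trbv counts over all libraries. The groups overlapped.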

How the data were processed

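RNA-seq of 14 sorted Treg libraries was analysed. Per the labels, STAR 2.7.2b placed the reads, 50 bases long and single-end, on GRCm38. The values deposited by the authors and used here are a signal, the normalized count: reads of a gene over the size factor its library got from DESeq2 1.24.0, kept to 1 decimal. The program that counted reads was not given in the sources used here. Further columns deposited by the authors were not used: stabilized values and fold changes in log2 units, linear fold changes (a ratio), the p-value and FDR for each of their comparisons, and the percent GC of each gene. Of 55536 rows, 7173 had no values and were left out. Reads recovered from the normalized counts were whole for 100.0% of values (within 0.055 normalized counts).

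The main test was limma-trend (limma 3.58.1, R 4.3.3) on log2(normalized count + 1), with 4 group means over 14 libraries and no covariate, for genes with at least 10 normalized counts in at least 2 libraries, and a call needed p under 0.05 after Benjamini-Hochberg adjustment over 16241 genes. Fold changes are on that scale, where the added 1 shrinks differences between low values but a library at 0 can enlarge them. Trbv30, at 0 in CD25hi replicate 2, averaged 68.0 normalized counts in CD25lo and 71.2 in CD25hi Tregs. Its log2 difference was 1.60. Of the 97 members that passed, a few passed only through 1 group. For cKO against WT Tregs these were 2 Trav through cKO, and 1 Trav and 1 Trbv through WT. For CD25lo against CD25hi Tregs they were 1 Trav through CD25lo, and 1 Trav and 1 Trbv through CD25hi. Alternatives used edgeR 4.0.16 and DESeq2 1.42.0 on recovered reads, other pseudocounts and filters, a sex term from Xist, a replicate block and each library left out. Sums, effective numbers and distances were described without a test.

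Sequence shared between segments was measured as 50-base windows of the longest GENCODE M21 transcript found in no other transcript. Introns and intergenic sequence were not searched. All 163 rows had the same coordinates in the table and in that annotation, which also gave the printed sequences. Segments named are the 10 most used of each locus, those with a mean share of at least 1% in which 1 library stands apart (in order of share), and, added after their values were seen, those at an unadjusted p under 0.05 or discussed for their sequence. Members and lists were chosen with earlier results of these data known. One further B cell marker of the list is not reported here.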

Additional observations from a re-analysis of the deposited data

Results flagged for a closer look

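In groups of 4 or 5 libraries, 9 of 93 groups of values tested held 1 library apart from the rest by Dixon's criterion. Chance gives this in about 1 in 20 groups. The 9 cannot be set against that rate, because Trbv20 and Trav7-3 were taken only for having a library apart. Among beta segments, Trbv19 took 7.62% of Trbv counts in cKO replicate 5, against 5.70% to 6.25% in the other cKO libraries. Trbv20 took 4.98% in cKO replicate 4, against 2.89% to 3.45% in the other cKO libraries, and 2.00% in WT replicate 2, against 3.43% to 3.59% in the other WT libraries. Among alpha segments, Trav3-3 took 4.96% of Trav counts in cKO replicate 2 (others 3.93% to 4.12%), Trav9-2 took 3.38% in cKO replicate 4 (others 2.21% to 2.49%) and Trav12-2 took 5.87% in cKO replicate 1 (others 4.595% to 4.772%). Trav7-3 was at 0 in WT replicate 4, against 1.20% to 1.37% in the other WT libraries. Trav13n-1 took 0.338% in WT replicate 1 and was at 0 in the other WT libraries. Rag2 had 2.8 normalized counts in cKO replicate 1 and 0 in the other cKO libraries. The flags fell in 7 of the 9 cKO and WT libraries.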

How the results depend on the processing

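The count of V segments called was 0 in both comparisons under every other tool, scaling, pseudocount and filter tried on all libraries. A sex term was run for cKO against WT Tregs only. Leaving out 1 library gave 0 to 1 called in each comparison: Trav13n-1 between cKO and WT Tregs without WT replicate 1, and Trav8-1 between CD25lo and CD25hi Tregs without CD25hi replicate 1. DESeq2 gave an adjusted p for 45 and 90 of the 97 members only. Libraries of the same replicate number had deviations from their group means with little correlation (-0.11 to 0.02 in cKO and WT, and 0.02 and 0.04 in CD25lo and CD25hi). With 2 CD25lo libraries the deviations of 1 mirror those of the other, so the last 2 values say little. Such correlations cannot show whether libraries came from the same animal, and this was not tested. With the number as a replicate block 0 members were called in either comparison. Leaving out WT replicate 2 and CD25hi replicate 2 together, an alternative chosen after seeing the data, also called 0 in both.

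The effective number of Trav segments was 4.55 higher in cKO than in WT Tregs over rows and 0.94 higher over families, which are fewer by construction, and 3.17 to 5.95 higher when a library was left out. The 4 sums and the effective number of Trbv segments moved by less than the pooled SD of both groups under each alternative, but 4 of these 5 differences took either sign with a library left out. Summed Trav ran from -0.0016 to 0.00035 percentage points and summed Trbv from -0.00087 to 0.0015 in cKO minus WT Tregs, summed Trbv from -0.00038 to 0.0030 in CD25lo minus CD25hi Tregs, and the effective number of Trbv segments from -0.10 to 0.31. Over the 60 log2 differences of named segments, 70 of 1525 alternative values, in 29 of the 60, had the opposite sign, and the largest of these 29 was 1.94 in size (Trav2, CD25lo against CD25hi Tregs). For cKO against WT Tregs, Trbv3 was at -0.006 with edgeR on DESeq2 size factors, -0.006 with DESeq2 and -0.0023 with the replicate block, and ran from -0.0636 to 0.159 with a library left out. Trbv13-2 was at 0.0137 after usage scaling and ran from -0.108 to 0.0671 with a library left out. With a sex term, thus against WT replicate 3 alone, Trbv13-1 was at -0.0717, Trbv13-2 at 0.26, Trav14-1 at -0.51 and Trav3-3 at 0.19. For CD25lo against CD25hi Tregs, usage scaling gave -0.075 for Trav14-1 and -0.0855 for Trav3-3, and Trbv3 was at 0.0871 without the 2 libraries named above. With a library left out, Trbv3 ran from -0.36 to 0.29, Trbv13-1 from -0.121 to 0.0067, Trav3-3 from -0.27 to 0.79 and Trav12-2 from -0.19 to 0.93. The causes were not tested.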
